A study of Homo sapiens with 6 samples.

Results

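The genes described here are the receptors for fibroblast growth factors (FGFs), a pair of their ligands, a carrier protein and a docking adaptor, in pancreatic cancer cells with and without knockdown of the prolactin receptor gene PRLR. They were listed by name, as FGFR1, FGFR2, FGFR3, FGFR4, FGFRL1, FGF2, FGF19, FGFBP1 and FRS2, chosen by gene symbol, and every probe set whose only annotated symbol was on the list was taken. A probe set is a group of short array probes read as 1 value. Of the 9 genes, 8 had such a probe set and FRS2 was not analysed here. They carried 30 of the 41091 probe sets with 1 symbol and made up 8 of 19775 genes. The probe set that stands for a gene was selected on its measured level, as the one with the highest mean over all 6 arrays, and not on the difference between groups. The list itself was drawn up with earlier results of these arrays known, the difference in FGFR3 among them, so the p-values below say where a gene stands among all genes and are not independent support.

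Expression was measured on Affymetrix U133 Plus 2.0 arrays in the cell line SW-1990, which was established from a splenic metastasis of a human pancreatic adenocarcinoma. In the group called sh-PRLR the cells carried a lentiviral short hairpin RNA (shRNA) against PRLR, and in the group called sh-Ctrl a scrambled shRNA. Both groups started from wild-type SW-1990 cells and had been kept in puromycin at 1 μg/ml for more than 7 days, so the controls carry the virus and the selection too. Control and knockdown arrays below mean these groups. Each group had 3 arrays, given by the labels as biological replicates. How many hairpins or clones lie behind them is not stated in the labels. The comparison asks which transcripts differ after PRLR knockdown. All values are on the log2 scale as deposited, and a negative difference means a lower value in sh-PRLR. Errors are SD with n = 3 arrays. Precision is limited by that number, and in bulk RNA fewer cells with a transcript and less transcript per cell cannot be told apart.

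Most FGFs are secreted proteins that bind heparan sulfate chains at the cell surface and bring together pairs of FGF receptors, which are tyrosine kinases. The activated receptors phosphorylate the docking protein FRS2, which recruits GRB2 and SOS and so turns on RAS and ERK, while PLCG1 binds the receptor directly. ERK in turn induces inhibitors of the same pathway, among them the Sprouty, SPRED and DUSP proteins. FGFR2 and FGFR3 are made as splice forms that favour different ligands in epithelial and mesenchymal cells, and FGF19 acts as a hormone through FGFR4 with the co-receptor KLB.

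PRLR, the targeted gene, had a lower mean in sh-PRLR in 7 of 7 probe sets. Their average was 5.23, 5.03 and 4.79 on the sh-Ctrl arrays and 3.94, 4.38 and 4.19 on the sh-PRLR arrays, a difference of -0.85. This average is not the measure used for the members, for which the brightest probe set stands. The brightest for PRLR, 227629_at, showed a smaller difference of -0.23 (interval -1.09 to 0.63, limma adjusted p = 0.833), and its groups overlapped. All 7 were dim, below the level of 5.93 under which a gene is called dim here (the 40th percentile of gene levels), and 0 passed, the lowest limma adjusted p being 0.0948. The groups did not overlap in 3 of the 7, and 2 had an unadjusted p under 0.05. Epithelial markers were at 14.20 ± 0.04 (EPCAM) and 15.29 ± 0.07 (KRT18) in sh-Ctrl and at 14.24 ± 0.05 and 15.30 ± 0.07 in sh-PRLR, and 5 of 6 such markers were not dim. Of the 6, CDH1, which encodes E-cadherin, passed, and fell by 0.17 to 13.83 ± 0.02 in sh-PRLR (limma adjusted p = 0.0284). With limma's default settings CDH1 did not pass (limma adjusted p = 0.294). The dim one was MUC1, at 6.33 ± 0.16 and 5.03 ± 1.66 without passing. Of the fibroblast, leukocyte, endothelial, acinar and islet markers 13 of 19 were dim and 0 passed the test, 3 of 19 having an unadjusted p under 0.05, as did 20.3% of all genes. By limma with a variance that depends on the level, 1514 of 19775 genes passed an adjusted p of 0.05, which is 7.66%, with 660 higher and 854 lower in sh-PRLR. After centring each array on its median 143 were higher and 363 lower. With limma's default settings 4 genes passed, or 0.0202%.

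Among the members, FGFR3 had lower values in sh-PRLR and was the 1 gene of 8 that passed, where 7.66% of all genes passed and 4.32% passed as lower. The other receptor genes, both ligands and the carrier did not pass. Of the 8 genes 3 had a lower and 5 a higher mean in sh-PRLR, with a median difference of 0.14, where the median over all genes was about 0, of which 50.1% were lower. The groups did not overlap for 4 members, FGFR1, FGFR3, FGFR4 and FGF19, whereas 25.8% of all genes had groups without overlap.

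**Figure D1:**
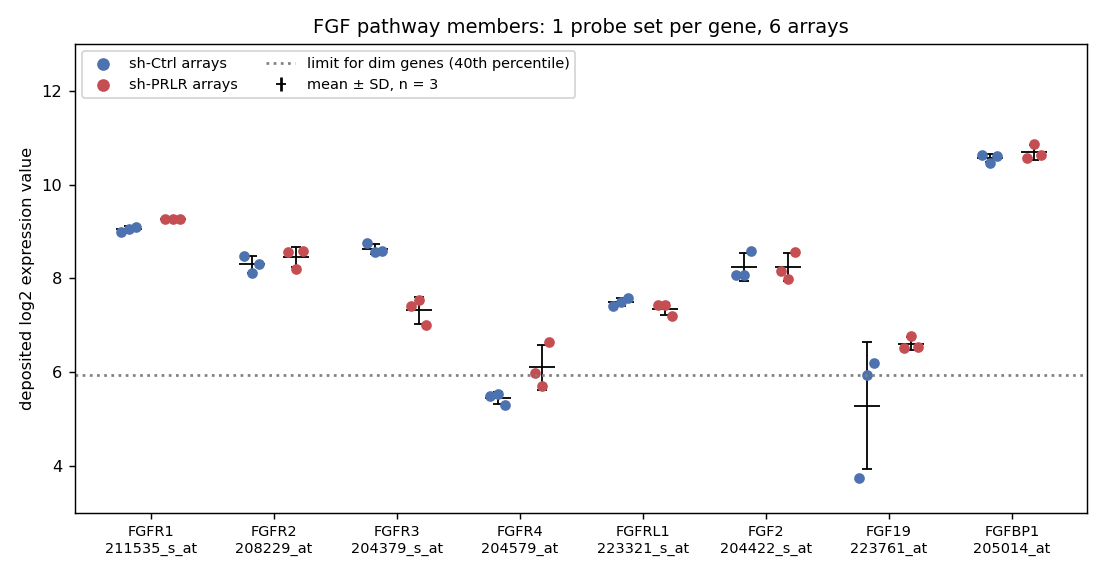
Deposited log2 value (vertical axis) of the 8 measured members on each of the 6 arrays, with 1 probe set per gene on the horizontal axis; points are arrays, bars are mean ± SD over 3 arrays, and the dotted line is the limit for dim genes at 5.93. The 3 sh-PRLR points of FGFR3 lie between 6.99 and 7.54, below all sh-Ctrl points, and FGF19 has 1 low sh-Ctrl array at 3.73.

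FGFR3 encodes a receptor tyrosine kinase best known for restraining bone growth and for activating changes in bladder cancer. Its probe set 204379_s_at read 8.75, 8.55 and 8.59 on the sh-Ctrl arrays and 7.41, 7.54 and 6.99 on the sh-PRLR arrays. The highest sh-PRLR array was thus 1.01 log2 units below the lowest sh-Ctrl array, and replicates within a group lay closer together than the groups. The means were 8.63 ± 0.10 and 7.31 ± 0.29, so FGFR3 fell by 1.32 on the log2 scale, or 2.49-fold (95% interval of the difference -1.69 to -0.95). This gave an adjusted p = 0.0013 over all genes in limma with level-dependent variance, and an adjusted p = 0.0737 with limma's default settings. Among all genes the difference ranked 550 from the lowest and the p-value 149 from the smallest.

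The second FGFR3 probe set did not show that fall. Probe set 204380_s_at read 3.37, 1.45 and 4.48 on control arrays and 2.24, 5.08 and 4.41 on knockdown arrays, with overlapping groups. Its difference was 0.81 with an interval from -1.50 to 3.13, wide enough to hold the -1.32 of the brighter probe set. It was dim, and control arrays differed by up to 3.03 log2 units. Averaging both probe sets gave -0.25 without a call (limma adjusted p = 0.878). Which FGFR3 transcripts each probe set reads was not examined here.

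The 250 bases before the annotated start of FGFR3 are shown because it is the member that passed, with those of FGFBP1, the member whose difference has the narrowest interval, for comparison. Both come from a set of RefSeq windows on GRCh38.p14, of which the part used here held 7 of the 9 genes and 12 starts. Windows of FGFR1 and FGF19 were not in that set. The FGFR3 window is chr4:1793043-1793292 on the plus strand and the FGFBP1 window chr4:15938741-15938990 on the minus strand. Capitals mark the GC box GGGCGG on either strand, the core of sites for SP and KLF factors.
FGFR3: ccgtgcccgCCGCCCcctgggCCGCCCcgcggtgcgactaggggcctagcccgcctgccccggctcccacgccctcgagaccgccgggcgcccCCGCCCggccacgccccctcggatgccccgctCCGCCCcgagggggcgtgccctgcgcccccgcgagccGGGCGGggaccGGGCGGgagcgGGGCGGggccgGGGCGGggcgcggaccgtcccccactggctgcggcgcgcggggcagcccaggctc
FGFBP1: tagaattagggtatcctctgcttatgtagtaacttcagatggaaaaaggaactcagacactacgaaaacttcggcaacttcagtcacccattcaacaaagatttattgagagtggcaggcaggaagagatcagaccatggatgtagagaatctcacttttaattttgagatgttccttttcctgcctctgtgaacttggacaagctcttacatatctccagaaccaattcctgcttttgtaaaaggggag

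The FGFR3 window was 86.8% G and C and held 8 GC boxes, while the FGFBP1 window was 40.8% G and C and held 0. Over 35116 RefSeq windows of the same length the median was 58.0%, 42.6% held at least 1 GC box and 0.584% held 8 or more. A G and C share at least that of FGFR3 occurred in 0.168% of them. The windows of FGFR2, FGFR4, FGFRL1, FGF2 and FRS2 held between 0 and 7 GC boxes. The 7 were in a window of FGFR4, which did not pass. The letters TTCNNNGAA, the palindrome bound by STAT factors, which act downstream of the prolactin receptor, were searched on both strands and occurred in 0 of the 12 windows of the list, against 6.57% of all windows. The AP-1 letters TGANTCA and the TATA letters TATAAA also occurred in 0 of 12, against 6.57% and 10.7% of all windows. The ETS letters CCGGAAG had 1 match in the window of FRS2 and 0 in that of FGFR3, against 8.52% of all windows with a match. A match in letters is a description of this window only.

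TACC3 and LETM1, which flank FGFR3 among the measured genes of chromosome 4, did not pass. TACC3 was at 9.88 ± 0.03 in control cells against 9.81 ± 0.14 in knockdown cells, and LETM1 at 9.53 ± 0.27 and 9.38 ± 0.34. The interval of the TACC3 difference, -0.26 to 0.12, lay wholly above that of FGFR3.

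The 5 genes above the limit for dim genes whose values over the 6 arrays, each centred on its own mean, lay closest to those of FGFR3 were HEPH, AQP3, CFTR, LGR5 and WDR72. Closeness was the root-mean-square distance over the 6 arrays, which was 0.13 log2 units for HEPH and 0.18 for WDR72, with a median of 0.69 over 11858 candidates. HEPH, a copper-dependent ferroxidase, read 7.66, 7.76 and 7.71 on control arrays and 6.70, 6.51 and 6.14 on knockdown arrays. The chloride channel gene CFTR read 8.53, 8.68 and 8.71 against 7.21, 7.71 and 7.06. As in FGFR3, the lowest of the sh-PRLR values in both genes was on replicate 3. LGR5, a receptor for R-spondins, had sh-PRLR values of 10.04, 10.09 and 10.07, without such a lower array. The differences of the 5 genes lay between -1.31 and -1.01, and since all were chosen for likeness to FGFR3, these values are a description.

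**Figure D2:**
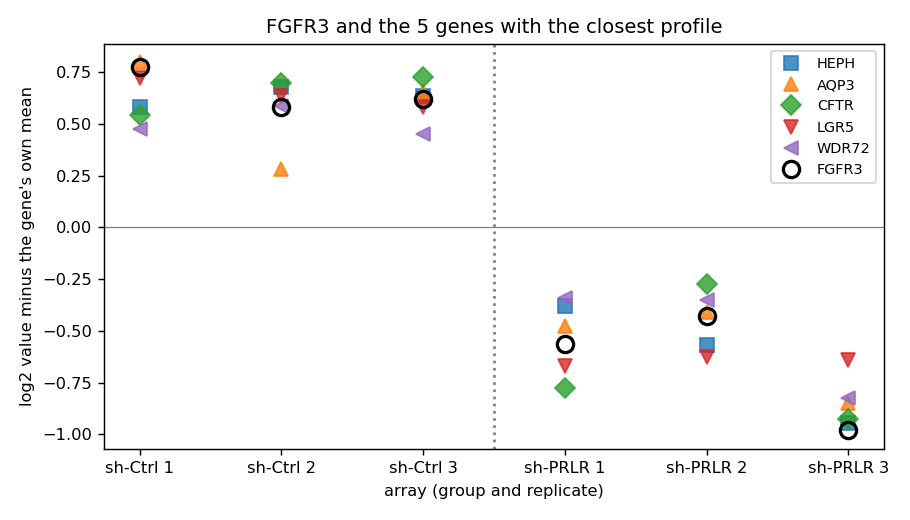
Log2 value minus the gene's own mean (vertical axis) on each array (horizontal axis) for FGFR3, open circles, and the 5 genes with the closest profile. The sh-Ctrl arrays lie above 0 and the sh-PRLR arrays below, and FGFR3 is lowest on sh-PRLR replicate 3, at 6.99 before centring.

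FGFR1, the receptor most often linked to mesenchymal cells, was measured by 7 probe sets, none of them dim, and 0 of 7 passed. The brightest, 211535_s_at, read 9.0, 9.06 and 9.10 in control arrays and 9.27 on each of the 3 knockdown arrays. The groups did not overlap, and the sh-PRLR arrays were nearly identical. The difference of 0.22 (interval 0.03 to 0.41) did not pass (limma adjusted p = 0.182 over all genes). The next brightest, 226705_at, pointed the other way, with 8.66, 8.55 and 8.62 on control arrays and 8.41, 8.35 and 8.59 on knockdown arrays, a difference of -0.16 with overlapping groups.

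The remaining FGFR1 probe sets had differences from -0.07 to 0.51, so that 5 of 7 were higher and 2 lower in sh-PRLR. The one with the largest difference, 210973_s_at, read 6.76, 6.18 and 7.26 on control arrays and 7.33, 7.11 and 7.27 on knockdown arrays, and its sh-Ctrl arrays spread over more than the difference. Probe sets 207937_x_at and 215404_x_at, whose suffix marks probes that can bind other transcripts, gave 0.12 and -0.07. For FGFR1 the direction therefore turns with the probe set, and it was lower by 0.16 where probe sets named _x_at or _s_at were left out.

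FGFR2, the receptor for several FGFs made by stroma in epithelial tissues, had 11 probe sets, of which 9 were dim and 0 passed. Probe set 208229_at read 8.47, 8.11 and 8.29 on control arrays and 8.56, 8.20 and 8.59 on knockdown arrays. The groups overlapped, and the difference of 0.16 (interval -0.17 to 0.49) did not pass (limma adjusted p = 0.628). The next, 208228_s_at, also not dim, read 6.49, 6.85 and 6.02 against 6.58, 5.86 and 6.19. It pointed the other way, with a difference of -0.24 (interval -0.93 to 0.45) and overlapping groups. The other 9 were between 1.26 and 5.55 on average over the arrays. Of the 11, 6 were higher and 5 lower in sh-PRLR, so the value given for FGFR2 holds for 1 probe set of 11.

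Among those 9 dim FGFR2 probe sets the differences ran from -1.09 to 1.53 without a call. The largest, 211398_at, read 4.50, 3.37 and 2.43 on control arrays and 5.53, 3.69 and 5.68 on knockdown arrays, with overlapping groups and an interval from -0.32 to 3.38. For 211401_s_at the arrays of sh-Ctrl alone ran from 1.26 to 5.43. Their SDs between replicates ran from 0.25 to 1.92. The interval of each of the 9 held a 2-fold change in at least 1 direction.

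FGFR4, the receptor through which FGF19 signals in liver, had 4 probe sets, all dim, and 0 passed. The brightest, 204579_at, read 5.49, 5.53 and 5.29 on control arrays and 5.97, 5.69 and 6.64 on knockdown arrays. The sh-PRLR arrays were all higher, but 1 of them, replicate 3, lay well above the others. The difference of 0.66 (interval -0.16 to 1.49) did not pass (limma adjusted p = 0.366), and without sh-PRLR replicate 3 it was 0.39 (limma adjusted p = 0.687). The other 3 probe sets were lower by 0.83, 0.21 and 0.07, with overlapping groups.

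FGFRL1 resembles the other receptors outside the cell but has no kinase domain inside it. Its brighter probe set, 223321_s_at, read 7.41, 7.50 and 7.57 on control arrays and 7.42, 7.42 and 7.20 on knockdown arrays, a difference of -0.15 (interval -0.51 to 0.22) with overlapping groups. The dim probe set 223648_s_at was higher by 1.23, on sh-Ctrl arrays at 5.93, 2.63 and 5.30 and sh-PRLR arrays at 6.20, 5.68 and 5.65. That difference rested largely on the array at 2.63, and its interval ran from -0.45 to 2.90.

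FGF2, a ligand of most FGF receptors that leaves cells without a signal peptide, was read by 2 probe sets. Probe set 204422_s_at read 8.08, 8.07 and 8.58 on control arrays and 8.15, 7.98 and 8.57 on knockdown arrays, and 204421_s_at read 8.09, 8.22 and 8.33 against 8.14, 8.44 and 7.94. Both pairs of groups overlapped. The differences were -0.01 (interval -0.43 to 0.41) and -0.04 (interval -0.38 to 0.30), so a change as large as that of FGFR3 lay outside both intervals. NUDT6, which overlaps FGF2 on the opposite strand, was at 10.05 ± 0.02 and 10.07 ± 0.04.

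FGF19, the hormone that reports bile acid uptake from gut to liver, was read by 1 probe set, 223761_at. It read 3.73, 5.93 and 6.19 on control arrays and 6.52, 6.77 and 6.53 on knockdown arrays. Every sh-PRLR array was higher than every sh-Ctrl array, and the sh-Ctrl arrays spread over 2.45 log2 units, with replicate 1 the lowest. The difference of 1.32 (interval 0.06 to 2.58) did not pass (limma adjusted p = 0.221). Without sh-Ctrl replicate 1 it was 0.55 (limma adjusted p = 0.383). The sh-Ctrl mean of 5.28 was dim, so the size of the difference is uncertain.

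FGFBP1, which releases FGFs from heparan sulfate in the matrix, was read by 205014_at. It read 10.63, 10.46 and 10.60 on control arrays and 10.57, 10.87 and 10.63 on knockdown arrays. The groups overlapped, and the difference of 0.12 (interval -0.07 to 0.32) did not pass (limma adjusted p = 0.488). A change of 2-fold in either direction lay outside that interval.

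Over all 30 member probe sets 1 passed, against 4.67% of the 41091 tested and 2.5% that passed as lower. Of the 30, 14 were lower and 16 higher in sh-PRLR, and of all probe sets 49% were lower. Of the members' probe sets 15 were dim. A difference of at least 2-fold occurred in 6 probe sets, 4 of them dim and without a call, the others being those of FGFR3 and FGF19. The groups did not overlap in 4 of 30, against 22.6% of all probe sets. Probe sets of 1 gene share its transcripts and are not replicates.

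**Figure D3:**
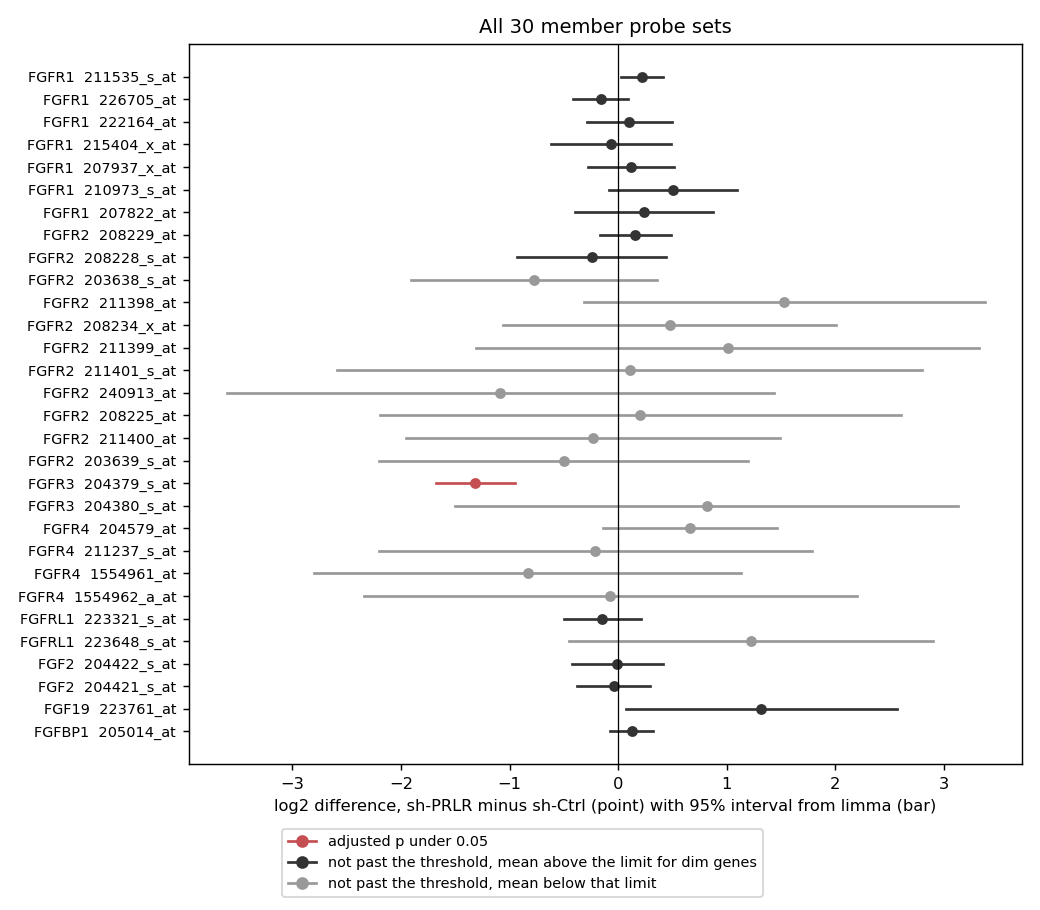
Log2 difference, sh-PRLR minus sh-Ctrl, of each of the 30 member probe sets (points) with its 95% interval from limma (bars). FGFR3 204379_s_at stands alone past an adjusted p of 0.05, and the grey bars of dim probe sets, such as FGFR2 211398_at from -0.32 to 3.38, are several times wider than those of bright ones such as FGFBP1.

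The spread between replicates followed the level. It had a median SD of 0.22 over the 15 brighter member probe sets and of 1.26 over the 15 dim ones. Over all genes, each read by its brightest probe set alone, the medians were 0.12 above and 0.97 below the limit for dim genes. These medians are over genes and those of the members over probe sets, so they are not a like comparison. FGF19, at an average of 5.94, was the member above the limit with the widest spread, 0.96, where probe sets between 5 and 6 had a median SD of 0.54. FGFR3 204379_s_at, at 7.97, had an SD of 0.22, as had the median probe set between 7 and 8.

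**Figure D4:**
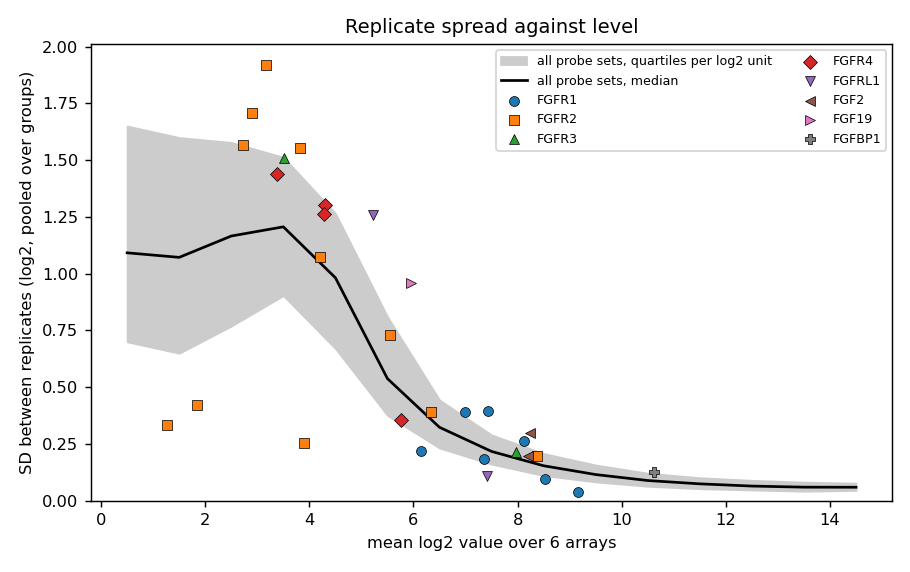
SD between replicates, pooled over the groups (vertical axis), against the mean log2 value over 6 arrays (horizontal axis), for the 30 member probe sets (symbols by gene) and all probe sets with 1 symbol (line, median; band, quartiles, per log2 unit). Member probe sets above 8 have SDs below 0.30, whereas the dim FGFR2 probe sets reach 1.92.

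Of the other FGF family genes, listed here as ligands, 20 were measured and 16 were dim. None of the 20 passed limma with level-dependent variance, against 7.66% of all genes, and 1 had an unadjusted p under 0.05, against 20.3%, with a median difference of 0.04. With 16 of 20 dim, against 40% of all genes, these shares are an unlike background for the list. FGF9, a ligand of FGFR3 among others, was at 8.72 ± 0.16 in control cells against 8.44 ± 0.10 in knockdown cells without overlap (limma adjusted p = 0.226). FGF18 was at 8.76 ± 0.30 and 9.05 ± 0.11 (limma adjusted p = 0.288). Both were looked up after their values were seen, as the brightest of the list.

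Among 25 measured co-receptors, binding proteins and heparan sulfate genes 2 rose and 0 fell, a share near the 7.66% of all genes that passed, with a median difference of 0.04. SDC4, the core protein of a cell surface heparan sulfate proteoglycan, read 10.78, 10.77 and 10.89 on control arrays and 11.41, 11.53 and 11.46 on knockdown arrays. It rose by 0.66 without overlap (limma adjusted p = 0.00023), and passed in 12 of 13 alternatives, limma's default settings being the exception. HS2ST1, a heparan sulfate sulfotransferase, rose by 0.21 (limma adjusted p = 0.0496), and that call was lost in 11 of 13 alternatives, with a difference of -1.01 where probe sets named _x_at or _s_at were left out. KLB, the co-receptor for FGF19, was at 6.15 ± 0.27 and 6.65 ± 0.17 without passing (limma adjusted p = 0.334), and was named after its values were seen.

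Of 15 measured adaptors and enzymes that act next to the receptor 2 rose and 0 fell, beside the same 7.66% of all genes, with a median difference of 0.05. Of the 15, 0 were dim, whereas the 7.66% includes dim genes. In the fit without the dimmest 40% of genes, 2026 of 11865 passed. SHC1, an adaptor that links receptor kinases to GRB2, read 11.67, 11.73 and 11.60 on control arrays and 12.14, 12.30 and 12.20 on knockdown arrays. The adaptor SHB rose by 0.37 (limma adjusted p = 0.018), a call lost in 7 of 13 alternatives, median centring among them. SHC1 rose by 0.55 (limma adjusted p = 0.00061) and was also called in 11 of 12 alternatives, with default settings as the exception. GRB2, at 10.73 ± 0.05 and 10.74 ± 0.06, and FRS3, the relative of FRS2, at 6.64 ± 0.10 and 6.41 ± 0.18, did not pass, and both were named after their values were seen.

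Of 14 feedback inhibitors and ETS factors induced by ERK 2 rose and 1 fell, beside 7.66% of all genes, with a median difference of 0.05. Only 1 of the 14 was dim, so the share of all genes is an unlike background for this list too. DUSP5, a nuclear phosphatase of ERK, read 11.49, 11.57 and 11.48 on control arrays and 12.74, 13.03 and 12.92 on knockdown arrays, a rise of 1.38 (limma adjusted p = 9.24e-06) that was also called in 12 of 13 alternatives. DUSP6, its cytoplasmic relative, rose by 0.29 (limma adjusted p = 0.0085) with 3 of 3 probe sets passing, and was called in 10 of 13 alternatives, though not after median centring. SPRED2, an inhibitor of RAS signalling, fell by 0.22 (limma adjusted p = 0.0471). That call was lost in 10 of 13 alternatives, with a difference of 0.20 where probe sets were averaged. In the fit of single probe sets 1 of 2 passed for SHC1, 1 of 4 for SHB, 0 of 4 for HS2ST1 and 0 of 3 for SPRED2. With limma's default settings 0 genes of these 4 lists passed. In that fit 1 of 20, 7 of 25, 4 of 15 and 6 of 14, in the order given here, had an unadjusted p under 0.05. The share over all genes, dim ones included, was 16.2%. With level-dependent variance the counts were 1, 7, 4 and 8 in the same order, against 20.3% of all genes. In the fit without the dimmest 40% of genes, 3629 of 11865 had such a p.

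**Figure D5:**
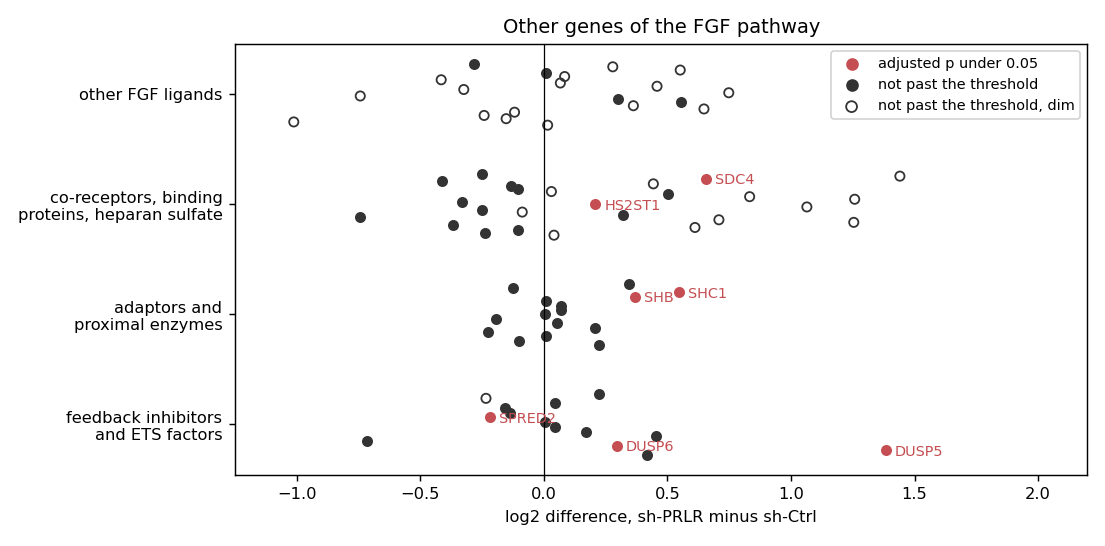
Log2 difference, sh-PRLR minus sh-Ctrl (horizontal axis), of each measured gene in 4 lists of other FGF pathway genes (rows), with genes past an adjusted p of 0.05 named and dim genes as open circles. DUSP5 at 1.38 and SDC4 at 0.66 lie farthest from 0 among the named genes, and most points farther out than SDC4 are dim genes without a call.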

How the data were processed

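Total RNA (Trizol, biotin label, per the labels' protocols) was read on 6 arrays, and the authors deposited 1 log2 value for each probe set on each array. The submitters' processing notes name affy, MAS5 and RMA and give neither their roles nor versions. Back on the linear scale, every array had a trimmed mean (2% off each end) of 500, as MAS5 scaling gives, so nothing was normalised again. No detection calls were used here. Symbols came from the platform annotation, of which 41043 were looked up by gene ID in a RefSeq table (0 changed). Control probe sets (62) and probe sets with several symbols (1801) or no symbol (11721) were left out.

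Groups were compared in limma 3.58.1 (R 4.3.3) with lmFit and eBayes, trend and robust on, two-sided, adjusted by Benjamini-Hochberg over 19775 genes at 0.05; single probe sets were fitted over 41091. The script was tested on simulated data. The members, the lists and this fit were chosen with earlier results of these data known. The rule named all members, PRLR, up to 6 passing genes per pathway list and the 5 genes closest to FGFR3. Outside it, TACC3, LETM1 and NUDT6 were named by position, and EPCAM, KRT18, CDH1, MUC1, FGF9, FGF18, KLB, GRB2 and FRS3 after their values were seen. Alternatives were default eBayes, quantile normalisation, median centring, leaving out the 40% dimmest genes, averaging probe sets, leaving out _x_at and _s_at probe sets, the replicate number as a block, and each array left out. The labels number replicates alike in both groups without saying what a number shares. The labels do not say whether replicates came from separate cultures. The p-values weigh each difference against a variance that limma draws from these samples and from genes of like level. They may not cover the spread between separate cultures. Figures used Python 3.11.15 and matplotlib 3.10.9.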

Additional observations from a re-analysis of the deposited data

How the results depend on the processing

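FGFR3 was the 1 member called with level-dependent variance, and also under quantile normalisation, median centring, without dim genes, with the replicate block and with each array left out (1 member gene and 1 member probe set each time), with differences from -1.43 to -1.16 over the arrays left out. No member gene and 0 member probe sets passed limma's default settings (2 genes and 2 probe sets at an unadjusted p under 0.05), 0 passed where probe sets were averaged (0 at an unadjusted p under 0.05), and 0 without the _x_at and _s_at probe sets (1 at an unadjusted p under 0.05), a setting that leaves no FGFR3 probe set. Directions of members without a call turned where probe sets were averaged (FGFR4 -0.11, FGFRL1 0.54), where _x_at and _s_at were left out (FGFR1 -0.16), and for FGF2 under quantile normalisation (0.031) and over the arrays left out (-0.17 to 0.16).

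Over all genes, 4 passed with default settings, 506 after median centring, which moved the median difference of all genes to -0.04 and the share of calls that were higher from 43.6% to 28.3%, and 609 with averaged probe sets. Leaving out 1 array gave 665 to 1322, and the count moved by over 1.5 times without any array but sh-PRLR replicate 1. Same-numbered arrays did not deviate together (correlations across 11865 genes of -0.07, 0.04 and -0.10), and the replicate block left 1090 genes, with an adjusted p = 0.0037 for FGFR3. Dim probe sets, 15 of the 30 members, limit what can be said of FGFR2 and FGFR4.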
